A study of Rattus norvegicus with 14 samples.

Results

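The steroid-converting enzymes described here are 10 rat genes whose products make active steroid hormones or remove them. Their members were taken by name, and every array probe set annotated with exactly 1 of these gene symbols was used, which gave 12 probe sets among 15209 with 1 gene symbol. Hsd17b6 had 3 probe sets and each of the other genes 1, so all 10 genes were measured among the 14497 named genes of the table. RNA came from the foreskin of Sprague Dawley rats on postnatal day 5 and was hybridised to Affymetrix Gene 1.0 ST arrays. The flutamide group held 7 litters, whose mothers were gavaged once a day between gestational days 16 and 20 with flutamide at 5 mg per kg body weight. The corn oil group held 7 litters whose mothers were gavaged with the corn oil vehicle on the same days. Foreskins of 2 pups were pooled within a litter, which makes litters the replicates, and the pups were exposed only through the dam. Flutamide is a drug that blocks the androgen receptor.

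Steroid hormones are switched on and off inside their target tissues as well as made in glands. Oxidoreductases of the short-chain dehydrogenase family and of the aldo-keto reductase family convert a strong androgen, oestrogen or glucocorticoid into a weak one, or the reverse, and a sulfatase frees steroids that circulate as inactive sulfates. In skin and external genitalia the local balance of these steps helps set how much dihydrotestosterone, the strongest natural androgen, reaches the androgen receptor. Reduction of testosterone to dihydrotestosterone is a further step outside these families. That step was not examined through the relatives of Srd5a3, which were not measured here. Srd5a3, Hsd17b1, Hsd17b3, Hsd17b6, Sts and Hsd11b1 were counted as activating, and Hsd17b2, Hsd17b4, Akr1c14 and Hsd11b2 as inactivating. Of these, Srd5a3, Hsd17b4 and Hsd17b6 are the least settled, because each has other known substrates or directions.

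The upstream sequence of Akr1c14 is shown because this gene had the largest difference among the enzymes, and stretches of Srd5a3 and Hsd17b4 because theirs held the half-site of the androgen response element. The letters searched were AGAACA and, on the other strand, TGTTCT, within the 250 bases before each start of a RefSeq gene on GRCr8. Sequences were found for 5 of the 10 genes. Matches are in capitals, and the Akr1c14 stretch (chr17:71083185-71083434, minus strand) has none.
Akr1c14: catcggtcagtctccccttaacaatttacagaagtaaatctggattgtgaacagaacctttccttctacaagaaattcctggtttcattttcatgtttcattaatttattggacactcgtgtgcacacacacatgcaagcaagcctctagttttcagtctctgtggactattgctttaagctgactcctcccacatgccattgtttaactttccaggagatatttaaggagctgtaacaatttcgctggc
Srd5a3: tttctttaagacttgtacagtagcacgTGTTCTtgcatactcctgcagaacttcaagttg
Hsd17b4: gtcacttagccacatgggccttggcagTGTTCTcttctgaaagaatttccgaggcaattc
The Srd5a3 stretch lies at chr14:32415148-32415207 on the minus strand and its match begins 207 bases before the start. The Hsd17b4 stretch lies at chr18:45515194-45515253 on the plus strand, and the match shown begins 206 bases before that start. A second match in the Hsd17b4 window, beyond the printed stretch, begins 141 bases before it. The windows of Hsd17b3 and Sts held no match. Of 33469 windows of this length in the RefSeq table, 17.5% held a half-site, and 4 held the full palindromic element, in which the half-site and its complement face each other across 3 bases, none of them among these genes. A match of letters is a description of the sequence only.

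None of the 12 probe sets passed the test between flutamide and corn oil litters. Akr1c14, which reduces dihydrotestosterone to a weak androgen in the rat, had the largest difference, with lower values in the flutamide litters at 0.848-fold. Hsd17b6, whose human enzyme can oxidise that weak androgen back to dihydrotestosterone, had the next largest difference, with higher values in the flutamide litters at 1.11-fold on its brightest probe set. The other 8 genes lay between 0.947-fold and 1.09-fold. In the limma fit with Benjamini-Hochberg adjustment over all 15209 probe sets, 0 of the 12 had an adjusted p under 0.05, as did 0.00658% of all probe sets. At an unadjusted limma p under 0.05 there was 1 of 12, Akr1c14, against 9.21% of all probe sets, and the share of the enzymes is thus near the background. In these pooled tissue samples fewer cells of a type and less RNA per cell cannot be told apart.

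The interval of each difference was narrow. All 12 of the 95% confidence intervals excluded a difference of 1.5-fold in either direction, as did 98.9% of all probe sets. The widest bound was that of Akr1c14, whose interval ran from 0.761-fold to 0.944-fold. RMA, the method by which the array values were made, shrinks differences of dim probe sets, so these bounds describe array values. Values of different probe sets cannot be compared as levels, and no gene was called present or absent.

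**Figure D1:**
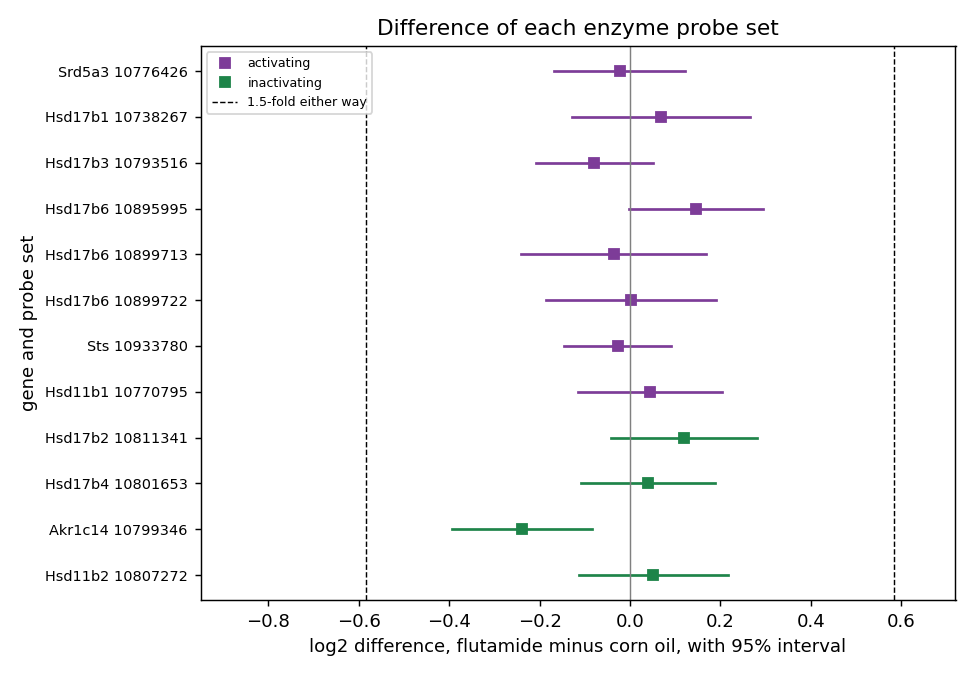
Difference of each enzyme probe set between flutamide and corn oil litters on the log2 scale, with the 95% confidence interval from limma as a horizontal line (n = 7 litters per group). Akr1c14, at -0.24, is the 1 probe set whose interval leaves out 0, and every interval stays inside the dashed lines of 1.5-fold.

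Akr1c14 encodes the rat 3-alpha-hydroxysteroid dehydrogenase, an aldo-keto reductase once named Akr1c9. In litters 1 to 7 of the flutamide group its log2 value was 4.39, 4.36, 4.06, 4.33, 4.26, 4.12 and 4.24, against 4.40, 4.41, 4.57, 4.36, 4.36, 4.78 and 4.56 in litters 1 to 7 of the corn oil group. All 7 flutamide litters lay below the corn oil median and 5 lay below the lowest corn oil litter, so the groups overlapped only slightly. The mean was 4.25 ± 0.12 in flutamide litters and 4.49 ± 0.16 in corn oil litters (SD, n = 7 each). The groups were thus apart by -0.24 (SE 0.07), with an unadjusted limma p of 0.00469 and a limma adjusted p of 0.353, which did not pass. An exact two-sided permutation test of this probe set alone, over the 3432 splits of the 14 litters, gave p = 0.00408. That p uses the same values and is not adjusted for the choice of the largest difference among the 12 probe sets. Akr1c14 ranked 202 by limma p-value among all probe sets. Omitting 1 litter at a time kept the difference between -0.26 and -0.19, the smaller size being that without corn oil replicate 6, and the limma adjusted p stayed between 0.283 and 0.505. The probe set is dim, with both group means under the log2 floor of 5 of an alternative fit, in which it was not tested.

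Of 10 lists of cell type markers, 9 had a lower mean in the flutamide litters, as Akr1c14 did. Among the 9, the keratinocyte, sebaceous gland and dermal fibroblast lists differed by only -0.02, -0.04 and -0.01. They had 2, 2 and 4 markers higher in flutamide litters, and 3 lower in each list. Of the smooth muscle markers, 7 of 7 were lower, and their mean log2 value per litter ran from 6.81 to 7.09 in flutamide litters and from 6.96 to 7.25 in corn oil litters. Adipocyte markers were lower in 4 of 6, with litter means from 5.16 to 5.31 in flutamide litters and from 5.26 to 5.53 in corn oil litters. Markers were also lower in 5 of 5 for skeletal muscle, with litter means from 6.09 to 6.58 in flutamide litters and from 6.30 to 6.65 in corn oil litters. They were lower in 6 of 6 for endothelium, from 6.92 to 7.18 in flutamide litters and from 7.0 to 7.35 in corn oil litters, and in 5 of 6 for macrophages, from 5.80 to 6.04 in flutamide litters and from 5.92 to 6.29 in corn oil litters. All these ranges overlapped. The hepatocyte list, included because liver expresses Akr1c14 strongly, was lower in 3 of 6, with litter means from 4.25 to 4.43 in flutamide litters and from 4.31 to 4.59 in corn oil litters. None of the 60 measured markers in 10 lists passed in limma over all probe sets, while 12, or 20%, had an unadjusted limma p under 0.05, against 9.21% of all probe sets. Of these 12, 4 were smooth muscle and 4 were adipocyte markers. The part of cell composition in the Akr1c14 difference was not tested.

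Hsd17b6 was measured by 3 probe sets that did not give the same difference. On probe set 10895995, the brightest, the log2 value was 6.56, 6.76, 6.89, 6.56, 6.54, 6.76 and 6.74 in litters 1 to 7 of the flutamide group, against 6.74, 6.43, 6.70, 6.56, 6.44, 6.47 and 6.45 in litters 1 to 7 of the corn oil group. Every flutamide litter lay above the corn oil median, but corn oil replicate 1 lay among the higher flutamide litters and corn oil replicate 3 above only the lowest 3 flutamide litters. The difference was 0.15 (SE 0.07), with an unadjusted limma p of 0.0533, a limma adjusted p of 0.547 and an exact permutation p of 0.0723. Without corn oil replicate 1 it was 0.18 with an unadjusted limma p of 0.0193 and a limma adjusted p of 0.531, and without flutamide replicate 3 it was 0.11.

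The remaining probe sets of Hsd17b6 showed no such difference. Probe set 10899722 had a lowest, median and highest value of 3.72, 4.03 and 4.39 in flutamide litters and of 3.79, 4.07 and 4.19 in corn oil litters, and differed by 0.0021 (SE 0.09; limma adjusted p = 0.998). Probe set 10899713 had 1.87, 1.95 and 2.21 in flutamide litters and 1.75, 1.97 and 2.55 in corn oil litters, and differed by -0.04 (SE 0.10; limma adjusted p = 0.947). Its corn oil range rests on replicate 6, without which the difference was 0.05. The flutamide and corn oil groups overlapped almost completely on both. The 3 probe sets share a gene and are not separate evidence.

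Further activating enzymes of androgens and oestrogens, Hsd17b3 and Hsd17b1, also overlapped between the groups. Hsd17b3, best known in the testis, reduces androstenedione to testosterone. Its lowest, median and highest log2 values were 4.13, 4.35 and 4.46 in flutamide litters and 4.29, 4.42 and 4.62 in corn oil litters. The difference was -0.08 (SE 0.06; limma adjusted p = 0.740), and 5 of 7 flutamide litters lay below the corn oil median. It was -0.05 without corn oil replicate 3 and -0.04 without flutamide replicate 2. Hsd17b1, known from ovary and placenta, reduces oestrone to oestradiol. Its values were 4.74, 4.99 and 5.45 in flutamide litters and 4.85, 5.04 and 5.06 in corn oil litters, so 3 flutamide litters lay above every corn oil litter and 1 below every one. The flutamide litters were the more spread for this gene, with an SD of 0.26 in flutamide litters and 0.10 in corn oil litters, and the difference of 0.07 (SE 0.09; limma adjusted p = 0.868) was smaller than either. With flutamide replicate 7 and corn oil replicate 1 both left out it was -0.02.

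Srd5a3 and Sts had nearly equal values in both groups. Srd5a3 belongs to the steroid 5-alpha-reductase family, and its human enzyme is known mainly for reducing polyprenol in protein glycosylation. Its lowest, median and highest log2 values were 6.68, 6.84 and 6.93 in flutamide litters and 6.66, 6.84 and 7.10 in corn oil litters, and the groups differed by -0.02 (SE 0.07; limma adjusted p = 0.951). Sts, steroid sulfatase, releases steroids from their sulfates, and its loss in humans causes X-linked ichthyosis. Its values were 6.95, 7.10 and 7.25 in flutamide litters and 7.0, 7.14 and 7.21 in corn oil litters, and the groups differed by -0.03 (SE 0.06; limma adjusted p = 0.925). For both genes the group medians differed by less than the SD within either group.

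Of the inactivating enzymes of sex steroids, Hsd17b2 and Hsd17b4 had values slightly higher in flutamide litters, and neither passed. Hsd17b2 oxidises oestradiol and testosterone to their weak forms. Its log2 value was 6.24, 6.03, 6.02, 6.30, 6.33, 6.17 and 5.94 in litters 1 to 7 of the flutamide group, against 6.34, 5.95, 6.04, 5.91, 6.04, 5.94 and 5.97 in litters 1 to 7 of the corn oil group. Corn oil replicate 1 was the highest litter of all, while the other 6 corn oil litters lay at or below 6.04. The difference was 0.12 (SE 0.08; limma adjusted p = 0.668), with 6 of 7 flutamide litters above the corn oil median. Without corn oil replicate 1 it was 0.17, with an unadjusted limma p of 0.0225 and a limma adjusted p of 0.540, and with flutamide replicate 7 left out as well it was 0.21. Hsd17b4 is a peroxisomal enzyme of fatty acid oxidation that can also oxidise oestradiol. Its lowest, median and highest values were 8.25, 8.35 and 8.64 in flutamide litters and 8.26, 8.35 and 8.52 in corn oil litters, and the groups differed by 0.04 (SE 0.07; limma adjusted p = 0.906).

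The enzymes of glucocorticoid exchange did not differ beyond the spread between litters. Hsd11b1 regenerates corticosterone, the main glucocorticoid of the rat, from its inactive keto form. Its lowest, median and highest log2 values were 5.11, 5.35 and 5.56 in flutamide litters and 5.15, 5.33 and 5.46 in corn oil litters, and the groups differed by 0.04 (SE 0.08; limma adjusted p = 0.905). Hsd11b2 does the reverse and protects the mineralocorticoid receptor from glucocorticoids. Its values were 5.67, 5.94 and 6.13 in flutamide litters and 5.59, 5.85 and 6.02 in corn oil litters, and the groups differed by 0.05 (SE 0.08; limma adjusted p = 0.887). The intervals ran from -0.11 to 0.20 for Hsd11b1 and from -0.11 to 0.22 for Hsd11b2.

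**Figure D2:**
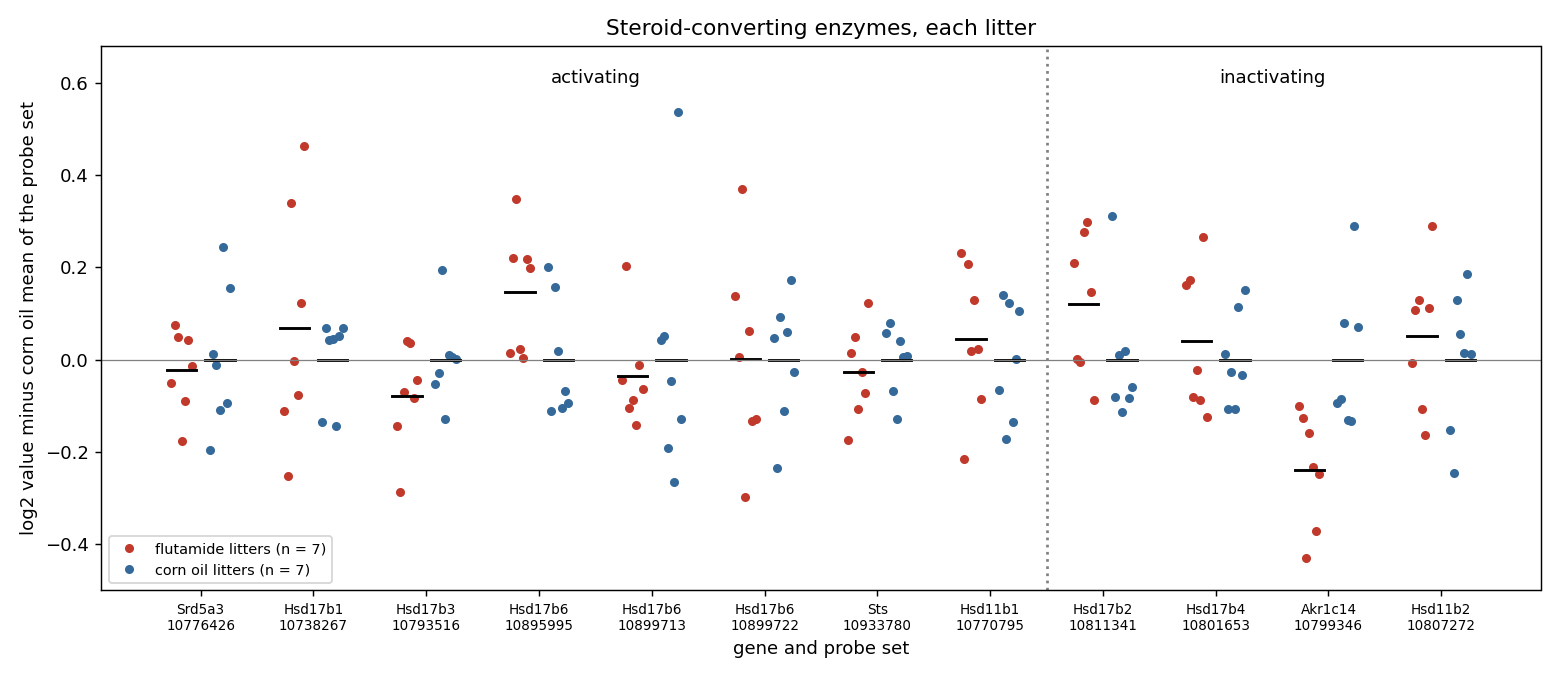
Log2 value of each litter minus the corn oil mean of the same probe set, with flutamide litters in red left of corn oil litters in blue, a black bar at each group mean and activating enzymes left of the dotted line (n = 7 litters per group). Akr1c14 is the 1 probe set with 5 flutamide litters below every corn oil litter, and single high corn oil litters stand out for Hsd17b2 and for Hsd17b6 probe set 10899713.

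Seen by class, activating and inactivating enzymes were not separated. Of the 8 probe sets of activating enzymes, 4 were higher and 4 were lower in flutamide litters, with a median difference of -0.011 and a range from -0.08 to 0.15. Of the 4 probe sets of inactivating enzymes, 3 had higher values and 1, that of Akr1c14, lower, with a median of 0.046 and a range from -0.24 to 0.12. Over all 15209 probe sets tested the median was 0.0038 and 51.8% had higher values in flutamide litters. For 7 of the 12 enzyme probe sets the value was higher in flutamide litters. With 1 brightest probe set per gene the activating median was 0.011, so its sign is not settled.

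Enzymes counted as running opposite ways on one steroid were then set against each other within each array. The value was the log2 ratio of the activating to the inactivating probe set, relative to its corn oil mean. Such a ratio shows unequal difference of the pair, not a level, and no test was made, since the genes were chosen with results of these data known. Hsd17b6 and Akr1c14 would face each other at dihydrotestosterone if the rat Hsd17b6 enzyme acts as described for the human one. For Hsd17b6 over Akr1c14 the lowest, median and highest ratio was 0.12, 0.35 and 0.78 in flutamide litters and -0.36, 0.03 and 0.30 in corn oil litters. All flutamide litters were above the corn oil mean, 4 of 7 were above every corn oil litter, and the means differed by 0.38. With the dimmer Hsd17b6 probe sets over Akr1c14 the means differed by 0.24 and 0.20. Those probe sets themselves differed by only 0.0021 and -0.04, so these ratios restate the Akr1c14 difference of -0.24.

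For Hsd17b3 over Hsd17b2, which face each other at testosterone, the difference ran the other way, at -0.20. Its lowest, median and highest ratio was -0.35, -0.24 and 0.04 in flutamide litters and -0.37, 0.05 and 0.18 in corn oil litters. The lowest corn oil litter, replicate 1, reached below all flutamide litters, so the flutamide range lay inside the corn oil range. Corn oil replicate 1 is also the litter with the high Hsd17b2 value. Hsd17b3 is dim, with both group means under the log2 floor of 5. At oestradiol, Hsd17b1 differed by -0.05 over Hsd17b2 and by 0.03 over Hsd17b4, and at corticosterone Hsd11b1 over Hsd11b2 differed by -0.0073. Each of these 3 was smaller than the SD between litters, which ran from 0.26 to 0.36 in flutamide litters and from 0.16 to 0.23 in corn oil litters.

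**Figure D3:**
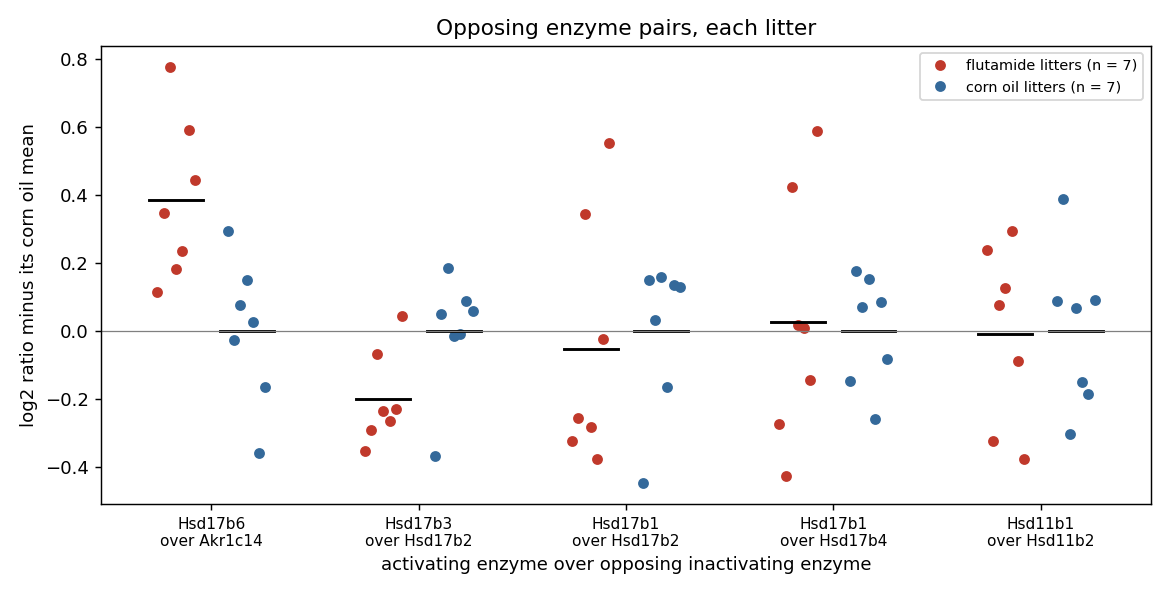
Log2 ratio of an activating enzyme over the inactivating enzyme opposite it in each litter, minus the corn oil mean of that ratio, with flutamide litters in red left of corn oil litters in blue and black bars at group means (n = 7 litters per group). Hsd17b6 over Akr1c14 lies 0.38 higher in flutamide litters, with overlap. Hsd17b3 over Hsd17b2 lies 0.20 lower, but every flutamide litter is inside the corn oil range, and the remaining pairs overlap widely.

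How the enzymes varied together from litter to litter was examined next. Pearson's r over the 14 litters, after the mean of each group was subtracted, ran from -0.66 to 0.49 over the 45 pairs of genes, with a median of -0.04. No pair passed after Benjamini-Hochberg adjustment of the permutation p over the 45 pairs, which does not show that the genes vary independently, and 2 pairs had an unadjusted permutation p under 0.05 by Pearson's r and 2 by Spearman's rho. The pair with the smallest p was Hsd17b2 with Hsd11b2, both inactivating enzymes, which varied in opposite directions. Its r was -0.66 (permutation p = 0.0152, adjusted 0.684) and its rho was -0.64 (permutation p = 0.0223, adjusted 0.789). Without the 2 litters farthest from the median of Hsd17b2 the r was -0.53, and within groups it was -0.94 in flutamide litters and -0.37 in corn oil litters. Akr1c14 and Hsd17b6 had an r of -0.36.

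**Figure D4:**
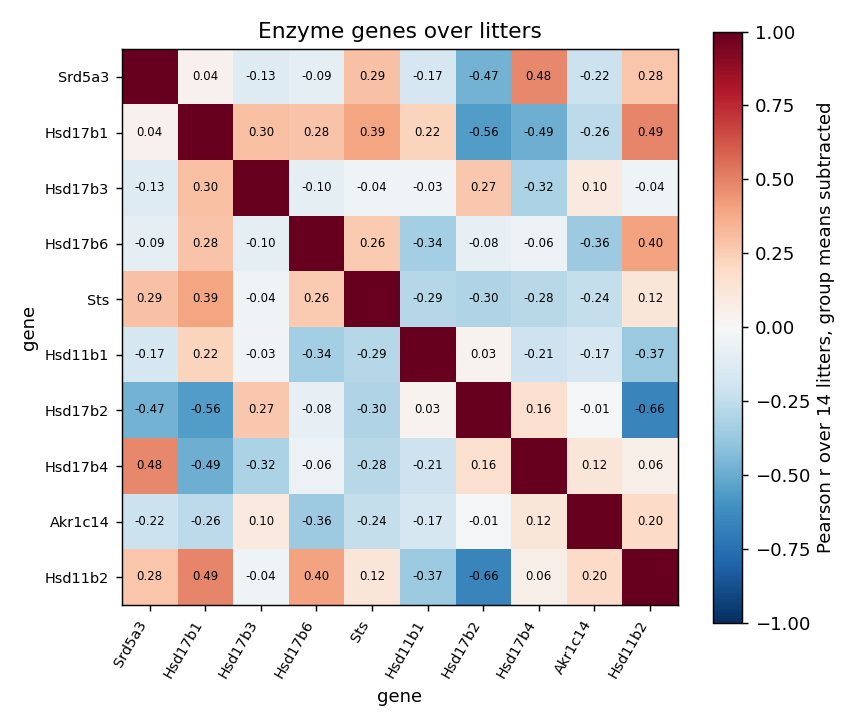
Pearson's r between the enzyme genes over 14 litters after subtracting each group's mean, on the brightest probe set of each gene, from -1 in blue to 1 in red. The strongest value off the diagonal is -0.66 for Hsd17b2 with Hsd11b2, and no pair passed after adjustment.

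Other genes of steroid metabolism gave no call either. Of 54 further genes listed, 40 were measured with 42 probe sets, and none had a limma adjusted p under 0.05 over all probe sets. At an unadjusted limma p under 0.05 there were 4, 2 higher and 2 lower in flutamide litters, against 5.56% of all probe sets higher and 3.66% lower. Their median difference was 0.03, and 26 of 42 had higher values in flutamide litters, against 51.8% of all probe sets. The remaining 14 listed genes had no named probe set and were not tested. Srd5a1 and Srd5a2, relatives of Srd5a3, and Cyp19a1 were not among the 40 measured genes. Reduction of testosterone to dihydrotestosterone through Srd5a1 or Srd5a2 was therefore not examined.

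Akr1c2, another aldo-keto reductase gene of the same cluster, had the largest difference of these genes. Its lowest, median and highest log2 values were 4.79, 5.07 and 5.57 in flutamide litters and 5.17, 5.49 and 5.79 in corn oil litters, and the groups differed by -0.33 (SE 0.11; limma adjusted p = 0.366). On rat chromosome 17, Akr1c14 and Akr1c2 stand at 8 coding genes' distance, with further Akr1c genes between them. The Akr1c genes did not differ one way. Of 7 measured, Akr1c2, Akr1c14 and Akr1c19 had lower values in flutamide litters, and 4 had higher, up to 0.14 for Akr1c12 (SE 0.08; limma adjusted p = 0.647). These genes are close copies of each other, and a probe set may take signal from a neighbour, which these values cannot separate.

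In the list from cholesterol to sex steroids, 4 of 8 probe sets were higher and 4 lower, against 51.8% of all probe sets higher. Cyb5a, the cytochrome b5 that aids the lyase step of androgen synthesis, differed by -0.24 (SE 0.09; limma adjusted p = 0.427). It ran from 6.77 to 7.34 in flutamide litters and from 7.07 to 7.57 in corn oil litters. Fdx1, the ferredoxin of mitochondrial steroid hydroxylases, differed by -0.12 (SE 0.06; limma adjusted p = 0.559), and Hsd3b2, a 3-beta-hydroxysteroid dehydrogenase gene, by -0.11 (SE 0.08; limma adjusted p = 0.711).

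Of the corticosteroid genes, 4 of 5 had higher values in flutamide litters, against 51.8% of all probe sets, and none passed. Cyp11b3, a rat member of the steroid hydroxylase family of the adrenal cortex, had a mean of 4.75 ± 0.12 in flutamide litters and 4.50 ± 0.12 in corn oil litters (SD, n = 7 each). It differed by 0.25 (SE 0.07; limma adjusted p = 0.308), and 6 corn oil litters lay below every flutamide litter. Cyp11b2 differed by 0.24 (SE 0.12, limma adjusted p = 0.571) and Cyp11b1 by 0.12 (SE 0.11, limma adjusted p = 0.780). For Cyp11b2, corn oil replicates 5 and 6 were the lowest litters, at 3.57 and 3.59. Its medians were closer, at 4.30 in flutamide and 4.20 in corn oil litters. All 3 probe sets are dim, with group means under the log2 floor of 5. The 3 genes are related, and whether their probe sets share signal was not examined. The list of Leydig and adrenal cortex markers had litter means from 4.53 to 4.69 in flutamide litters and from 4.44 to 4.67 in corn oil litters. That list itself holds Cyp11b1 and Cyp11b2, so it is not separate from their differences. Among its defining genes, Cyp11a1 differed by 0.05 and Cyp17a1 by -0.04, and Star by 0.0095. The part of such cells in the Cyp11b difference was not tested.

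Among other dehydrogenases and conjugating enzymes, no probe set passed. Hsd17b7, an enzyme of cholesterol synthesis that can also reduce oestrone, differed by 0.15 (SE 0.07; limma adjusted p = 0.522), and 10 of the 16 probe sets of its list were higher. In the list of conjugation and deconjugation, 8 of 13 were higher, and over all probe sets 51.8% were higher. None of the 13 had an unadjusted limma p under 0.05, against 9.21% of all probe sets. A list this short cannot show that its share is lower. The steroid sulfate transporter gene Slco2b1 differed by 0.14 (SE 0.07; limma adjusted p = 0.559). Sumf1, whose enzyme activates sulfatases such as that of Sts, differed by -0.15 (SE 0.09, limma adjusted p = 0.642), and the sulfotransferase gene Sult2a1 by -0.21 (SE 0.15, limma adjusted p = 0.701). The Sult2a1 probe set is dim, with means of 2.27 in flutamide and 2.49 in corn oil litters.

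**Figure D5:**
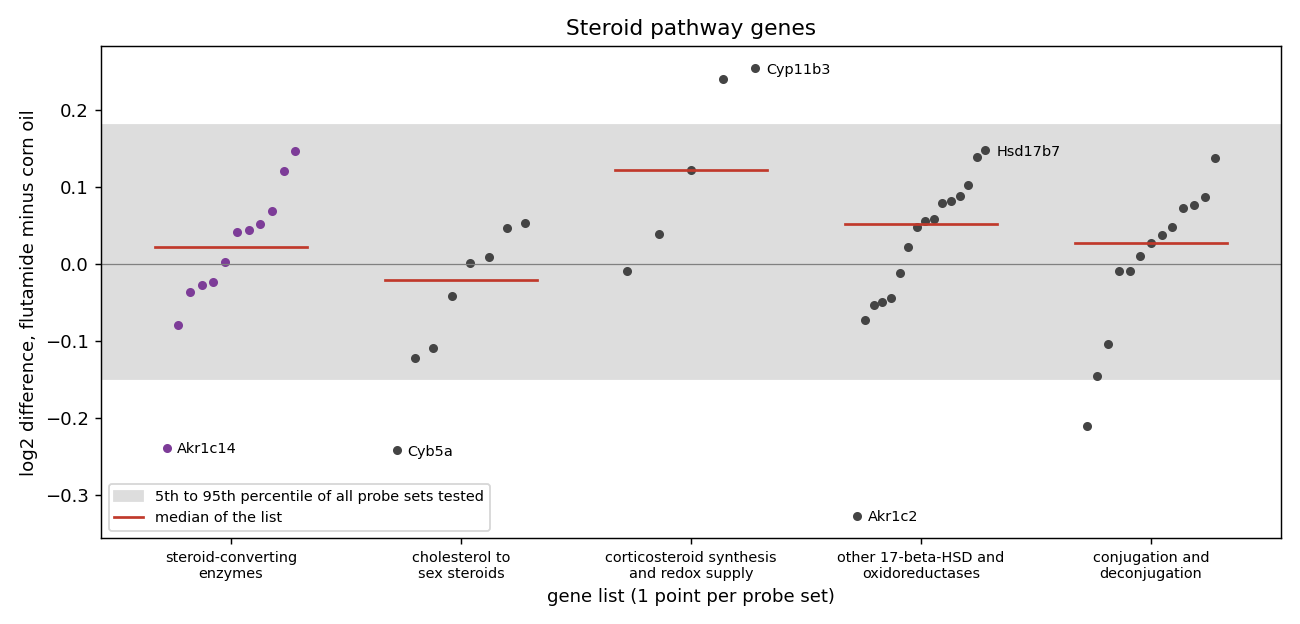
Log2 difference between flutamide and corn oil litters of each probe set (points) in the enzyme set and in the lists of related genes, with red bars at list medians and a grey band from the 5th to the 95th percentile of all 15209 probe sets. The band runs from -0.15 to 0.18, most points lie inside it, and genes with an unadjusted limma p under 0.05 are named.

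The series as a whole gives the setting for these values. Array medians lay between 5.63 and 5.70, and any pair of samples correlated at 0.984 to 0.992 across probe sets. The defining markers of skin were bright in both groups, with means of 9.82 in flutamide and 9.87 in corn oil litters for Krt14, a basal keratinocyte keratin, and of 9.08 in flutamide and 9.01 in corn oil litters for the collagen gene Col1a1. Krt5 was not analysed here. Precision is limited by how many arrays there are, and the SE of a difference had a median of 0.07.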

How the data were processed

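The deposited log2 values came as 1 table of 28826 probe sets in 14 samples, which the authors made with RMA per the submitters' processing notes. That the scale is log2 follows from the range of the values, with the genome build, RMA version and summary level not given in the sources used here. Genes were assigned from the platform annotation at GEO, with symbols updated by gene number through RefSeq (GRCr8). Of the probe sets, 15209 had 1 gene symbol, 306 several and 13311 none or were not listed, and only the first were tested. No probe set with several symbols named a member.

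The test was limma's moderated test (version 3.58.1, lmFit and eBayes, R 4.3.3). It was two-sided, without a filter, and adjusted by Benjamini-Hochberg over the 15209 probe sets at a threshold of 0.05. The fit was tested on simulated data. Errors are limma standard errors. Pair correlations used 100000 permutations within groups. The text names every member probe set and, from each related list, the probe sets with an unadjusted p under 0.05 or, where fewer than 3 had one, the 3 smallest p. The members and lists were chosen with earlier results of these data known. The alternatives were other probe set choices, scalings, variance models and samples. Replicate numbers are shared between groups without a stated shared dam, day or batch.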

Additional observations from a re-analysis of the deposited data

Results flagged for a closer look

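In groups of 7 litters, a litter was singled out when its gap to the nearest other took a larger share of the range of the group than the 95% limit of Dixon's test, which chance does in about 1 of 20 groups. Of 24 groups looked at, 4 held such a litter. Hsd17b2 was 6.34 in corn oil replicate 1, while the other corn oil litters lay between 5.91 and 6.04. Hsd17b3 was 4.62 in corn oil replicate 3, with the others between 4.29 and 4.43. Hsd17b6 probe set 10899713 was 2.21 in flutamide replicate 2, with the other flutamide litters between 1.87 and 2.0, and 2.55 in corn oil replicate 6, with the other corn oil litters between 1.75 and 2.06.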

How the results depend on the processing

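Under 23 alternatives no member probe set and no related gene passed; the lowest limma adjusted p of a member was 0.283. Akr1c14 kept its direction in all 22 in which it was tested and Hsd17b6 probe set 10895995 and Hsd17b2 in all 23. Of the 12 member probe sets, the number at an unadjusted p under 0.05 was 2 with an intensity trend and robust variance (9.09% of all probe sets), 2 with the array SD as a covariate (8.02%), 3 with flutamide replicate 7 and corn oil replicate 1 left out (7.05%), and 1 to 3 with single litters left out (7.68% to 10.4%; 3 without corn oil replicate 1, with 8.0% of all probe sets, and 2 without flutamide replicates 1, 4 or 5 or without corn oil replicate 3). With only probe sets at a mean log2 of at least 5, 8 of 12 member probe sets were left, without Akr1c14. The count of 1 was then Hsd17b6, against 9.05% of all probe sets kept. The activating median was then 0.0444, since fewer probe sets entered. Centred on each sample's median, Hsd17b6 probe set 10899722 differed by -0.0030. With flutamide replicate 7 and corn oil replicate 1 left out, Hsd17b1 differed by -0.0194 and Hsd11b2 by -0.0135. With single litters left out, Srd5a3 ran from -0.0558 to 0.0173, Hsd17b6 probe set 10899722 from -0.0590 to 0.0520 and 10899713 from -0.0801 to 0.0535. The cause of these sign changes was not tested. With the replicate number as a block, Akr1c14 had an unadjusted p of 0.0160 and a limma adjusted p of 0.366, and no call changed; same-numbered samples correlated between -0.07 and 0.14, over 0.1 in 1 of 7 pairs, so the main fit had no pairs. With single litters left out the activating median ran from -0.03 to 0.04 and the inactivating median from 0.02 to 0.07.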
